A study of Mus musculus with 12 samples.

Results

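The gene expression difference between LYVE1+ and LYVE1- macrophages was compared between 2 tissues of the mouse, the aorta and the adipose tissue (fat). For each gene the quantity is the tissue difference, the log2 fold change of LYVE1+ over LYVE1- cells in the aorta minus the same log2 fold change in fat. A positive value means that the LYVE1+ to LYVE1- ratio was higher in the aorta than in fat. All 12 of the 12 libraries of the series enter it, 6 from aorta and 6 from fat, and the contrast was computed for every gene of the count table. Of 46517 genes in that table, 25331 had a count in at least 1 library and 14216 passed the filter on low counts and were tested.

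The 4 groups, each of 3 libraries, were aorta LYVE1+, aorta LYVE1-, fat LYVE1+ and fat LYVE1- macrophages. All came from adult wild-type C57/BL6 mice, 30 for the aorta and 20 for fat, where epididymal and subcutaneous depots were taken. The shared gate was DAPI-, CD45+, CD64+, MerTK+, CD11b+ and F4/80+, and the sorts were then divided by surface LYVE-1. How many animals were pooled for a library was not given in the sources used here, so p-values measure the spread between these libraries, which may be technical.

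LYVE1 is a receptor for hyaluronan that was first known from lymphatic vessels and that also marks a population of resident macrophages lying along blood vessels. LYVE1- macrophages of the same tissues usually carry more MHC class II and include cells renewed from blood monocytes. A part of tissue macrophages divides in place, and dividing cells switch on genes in waves, first those that make nucleotides and copy DNA in S phase and later those that build the spindle and separate the chromosomes in mitosis. E2F factors act on many promoters of the first wave, and the cell cycle homology region, CHR, is a promoter element of many genes of the second, often close to CCAAT boxes bound by NF-Y.

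Library totals ran from 5049936 to 29792301 counts. The 2 fat libraries numbered 1 stood apart, with 8.85% (LYVE1+) and 12.1% (LYVE1-) of counts from mitochondrial genes against 1.79% to 3.20% in the other 10. They also held the highest summed level of 8 erythroid genes, 26170 and 5324 CPM (counts scaled to a common library total) against 1.88 to 1412 CPM elsewhere. Fat LYVE1+ library 1 further held 13210 CPM of 10 MHC class II genes while fat LYVE1+ libraries 2 and 3 held 3283 and 3427 CPM. Many calls and list medians changed without them. Values without them are given where stated, and all other values include them. Lyve1 RNA (chr7:110850607-110863239; coordinates here and below are GRCm38) followed the sort. It stood at 2744, 2044 and 2806 CPM in LYVE1+ sorts of the aorta and at 877, 1323 and 868 CPM in its LYVE1- sorts. In fat it stood at 1497, 2193 and 2095 CPM in LYVE1+ and at 230, 570 and 611 CPM in LYVE1- libraries. The sorts did not overlap in either tissue, which held for 22.4% of all tested genes in aorta and 18.9% in fat. The tissue difference of Lyve1 was -0.73 (SE 0.45, adjusted p = 0.913). The 8 genes of the gate and of macrophage identity had tissue differences from -0.15 to 0.38, none called (none at an unadjusted p under 0.05 in edgeR and none called by DESeq2).

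The LYVE1 difference depended on the tissue for 22 genes, 0.155% of the 14216 tested, at an adjusted p below 0.05 (a call, edgeR quasi-likelihood test with Benjamini-Hochberg adjustment). Of these, 21 (0.148%) had a positive tissue difference and 1, Siglech (0.00703%), a negative value. An unadjusted p under 0.05 was found for 862 genes (6.06%), and fits that left out a single library called 0 to 47 genes. The 21 were mostly genes of dividing cells: 4 of them belong to a list of 30 DNA replication and S phase genes (Tk1, Rrm2, Mcm5, Mcm3) and 8 to a list of 30 mitosis and spindle genes (Cdc20, Prc1, Birc5, Top2a, Mki67, Nusap1, Tpx2, Aurka). The other 9 were Stmn1, Ncapd2, Hmmr, Asf1b, Spc24, Racgap1, Ccnf, Pkmyt1 and Narf. All 22 were called in fat, where 3.93% of genes were called. In the aorta, where 0.542% of genes were called and 11.3% had an unadjusted p under 0.05, 0 of the 22 were called (3 at an unadjusted p under 0.05, 0 called by DESeq2).

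For the 21 genes the direction came about in the same way. In fat they were lower in LYVE1+ than in LYVE1- cells, with log2 fold changes from -2.47 to -0.83 and a median of -1.83. In the aorta the values lay between -0.16 and 0.73 with a median of 0.17, and the tissue differences lay between 1.02 and 3.20 with a median of 2.00. All 3 fat LYVE1+ libraries lay below the other 9 libraries for 20 of the 21 genes, the exception being Narf. For 7 of the 21 the 3 fat LYVE1- libraries also lay above all 6 aorta libraries.

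**Figure D1:**
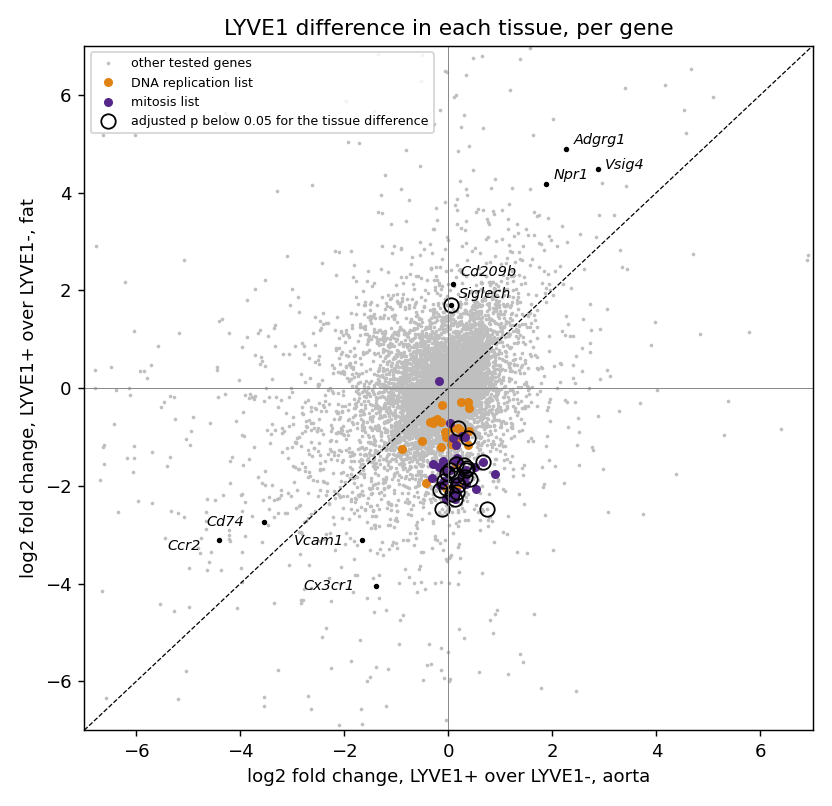
Log2 fold change of LYVE1+ over LYVE1- cells in aorta (x axis) and in fat (y axis), with 1 point per tested gene, the line of equal change dashed, 33 genes outside the axes, and open circles for genes with an adjusted p below 0.05 for the tissue difference. The circled genes of both cell cycle lists sit near 0 on the x axis and below 0 on the y axis, and Siglech sits near 0 on the x axis and at 1.69 on the y axis.

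The DNA synthesis genes are described first. Tk1 (chr11:117815526-117826092), the thymidine kinase that salvages thymidine for DNA synthesis, stood at 18.7, 24.6 and 18.6 CPM in aorta LYVE1+, at 15.4, 20.1 and 19.1 CPM in aorta LYVE1-, at 7.68, 6.93 and 6.75 CPM in fat LYVE1+ and at 23.7, 27.9 and 32.5 CPM in fat LYVE1- libraries. The aortic sorts overlapped, and the fat sorts were separate, with the fat LYVE1+ libraries lowest of all. The log2 fold change was 0.18 in aorta and -1.98 in fat, a tissue difference of 2.16 (SE 0.28, adjusted p = 0.0206), a 4.47-fold difference between the 2 ratios.

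Rrm2 (chr12:24708241-24714146), the small subunit of ribonucleotide reductase, which makes deoxynucleotides, stood at 23.7, 17.7 and 15.5 CPM in aorta LYVE1+ and at 22.1, 20.3 and 16.6 CPM in aorta LYVE1- libraries. In fat it stood at 11.5, 9.01 and 7.56 CPM in LYVE1+ and at 39.5, 35.3 and 40.0 CPM in LYVE1- libraries. Here the fat LYVE1- libraries also exceeded every aortic library. The tissue difference was 1.99 (SE 0.30, adjusted p = 0.0206).

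Mcm5 (chr8:75109569-75128439) and Mcm3 (chr1:20802968-20820312) encode subunits of the helicase that opens DNA at replication forks. Mcm5 stood at 55.3, 61.6 and 55.0 CPM in aorta LYVE1+, 53.9, 47.6 and 53.4 CPM in aorta LYVE1-, 23.6, 23.5 and 33.0 CPM in fat LYVE1+ and 63.1, 92.6 and 78.9 CPM in fat LYVE1- libraries. Its tissue difference was 1.70 (SE 0.25, adjusted p = 0.0206). Mcm3 stood at 106, 113 and 105 CPM in aorta LYVE1+ and at 71.4, 72.6 and 73.1 CPM in fat LYVE1+ libraries, with 91.5, 99.1 and 93.3 CPM in aorta LYVE1- and 110, 134 and 141 CPM in fat LYVE1- libraries. Its tissue difference, 1.02 (SE 0.17, adjusted p = 0.0466), was the smallest of the 21 genes, and without fat LYVE1+ library 1 it was 1.00 with an adjusted p of 0.0533.

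Among the mitotic genes, Cdc20 (chr4:118432901-118437352), the activator of the ubiquitin ligase that starts chromosome separation, stood at 26.3, 17.3 and 20.7 CPM in aorta LYVE1+ and at 20.1, 21.0 and 16.3 CPM in aorta LYVE1- libraries. In fat it stood at 5.76, 5.81 and 7.86 CPM in LYVE1+ and at 23.8, 30.6 and 31.3 CPM in LYVE1- libraries. The fat LYVE1+ libraries lay below all others and the aortic sorts overlapped, with a tissue difference of 2.30 (SE 0.31, adjusted p = 0.0206).

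Mki67 (chr7:135689784-135716361), the proliferation antigen that coats mitotic chromosomes, stood at 73.5, 60.4 and 81.5 CPM in aorta LYVE1+, 91.5, 66.4 and 69.2 CPM in aorta LYVE1-, 29.9, 23.7 and 17.8 CPM in fat LYVE1+ and 79.1, 84.8 and 101 CPM in fat LYVE1- libraries. Again only the fat LYVE1+ libraries stood apart, below the other 9, and the tissue difference was 1.82 (SE 0.28, adjusted p = 0.0234). Top2a (chr11:98992943-99024189), the topoisomerase that untangles sister chromatids, followed the same order, with 27.5, 31.4 and 23.6 CPM in fat LYVE1+ libraries against 58.8 to 102 CPM in the other 9, and a tissue difference of 1.72 (SE 0.26, adjusted p = 0.0206). Reads from Tk1, Cdc20, Prc1, Nusap1, Pkmyt1, Mki67 and Top2a could not be told apart from those of genes overlapping on the other strand (Afmid, Elovl1, Rccd1, Oip5 and Paqr4 for the first 5), because the protocol does not mark strand.

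Hmmr (chr11:40701395-40733422), a hyaluronan-mediated motility receptor that works at the mitotic spindle, had the largest tissue difference of the 22 called genes, 3.20 (SE 0.47, adjusted p = 0.0206). It stood at 12.6, 10.4 and 9.53 CPM in aorta LYVE1+, 5.08, 8.17 and 6.25 CPM in aorta LYVE1-, 1.92, 2.60 and 2.22 CPM in fat LYVE1+ and 8.19, 12.2 and 17.4 CPM in fat LYVE1- libraries. The sorts were separate in both tissues and in opposite order, with a log2 fold change of 0.73 in aorta (adjusted p = 0.396, not called) and -2.47 in fat (adjusted p = 0.00175). Hmmr was the only called gene among the 13 tested genes of the hyaluronan list, of which Lyve1 is another.

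The remaining called mitotic genes had tissue differences of 2.15 (Birc5, survivin of the chromosomal passenger complex), 2.38 (Nusap1, a spindle microtubule binder), 2.17 (Tpx2, a spindle assembly factor), 2.24 (Aurka, the Aurora A kinase) and 2.02 (Prc1, which bundles the central spindle). Outside both lists the called genes were Stmn1, a microtubule destabiliser (2.00), Ncapd2, a condensin subunit (1.92), Spc24, of the kinetochore (2.29), Racgap1, of the cytokinesis machinery (1.70), Asf1b, a histone chaperone (1.87), Ccnf, cyclin F (2.35), and Pkmyt1, an inhibitory kinase of CDK1 (1.94). Adjusted p-values ran from 0.0206 to 0.0479 over the 22. Narf, which binds prelamin A, was the last inside the threshold (1.40, SE 0.25, adjusted p = 0.0479) and Plk1, the Polo-like kinase of mitosis, lay just outside (2.66, SE 0.47, adjusted p = 0.0511). Plk1 was called by DESeq2 (adjusted p = 0.000145) and without both fat libraries numbered 1 (2.71, adjusted p = 0.0346). Narf differed from the others in its levels: fat LYVE1+ libraries (21.2 to 24.2 CPM) overlapped both aortic sorts (17.4 to 31.5 CPM), and the fat LYVE1- libraries stood above all (42.1 to 48.7 CPM).

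**Figure D2:**
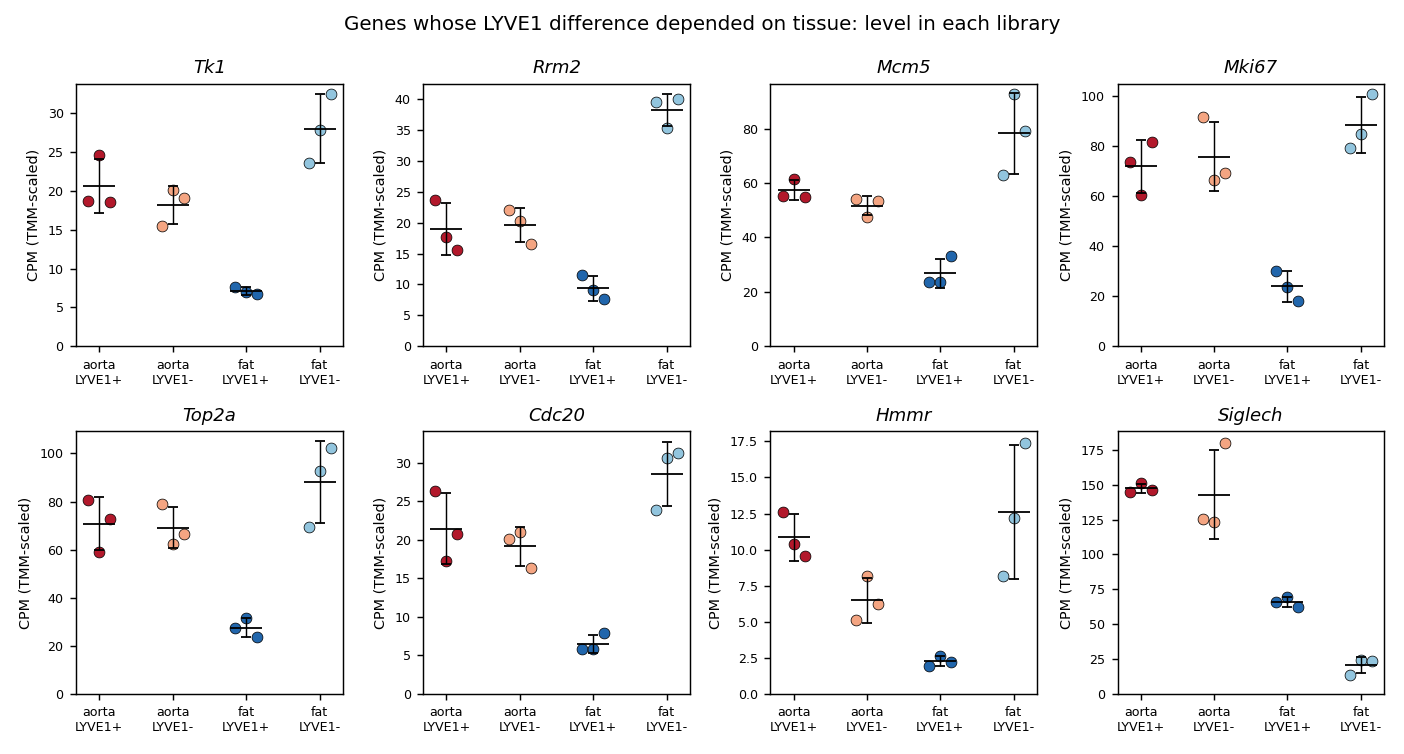
Level in CPM, scaled by TMM factors, in each of the 12 libraries for 8 called genes, with a horizontal line for the mean and bars for the SD of 3 libraries. In all panels but that of Siglech the 3 fat LYVE1+ points lie lowest, such as 6.75 to 7.68 CPM for Tk1, and in the Siglech panel the 3 fat LYVE1- points lie lowest.

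The called genes and both lists were compared with the promoter letters of RefSeq (GRCm38.p6, 250 bases before to 50 after each start site). Patterns were searched on both strands, TTTCCCGC or TTTGGCGC for E2F, TTTGAA for CHR and CCAAT for the NF-Y box, and none of these contains another. Over all 32851 promoters, 1.6% held the E2F letters, 17.9% the CHR letters and 37.4% CCAAT. Of the 21 genes with a positive tissue difference 17 matched an entry, with 18 promoters, of which 3 (16.7%) held E2F, 11 (61.1%) CHR and 15 (83.3%) CCAAT letters. Of the replication list 25 of 30 genes matched, and 26.7% of their 30 promoters held E2F, 10% CHR and 56.7% CCAAT letters. Of the mitosis list 26 of 30 matched, and 0 of their 27 promoters held E2F, 77.8% CHR and 81.5% CCAAT letters. A match is a description of the letters and not a site of binding, and the shares were not tested.

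These windows of 200 bases, 170 before to 30 after the start site, are shown for 5 called genes as examples of CHR letters alone, of both kinds and of E2F letters alone. Capitals mark E2F or CHR letters on either strand, and CCAAT boxes are left in lower case. Cdc20 (chr4:118437314-118437513, minus strand) and Asf1b (chr8:83955524-83955723, plus strand) hold 1 CHR match, Ccnf (chr17:24251380-24251579, minus strand) holds 2, Ncapd2 (chr6:125191557-125191756, minus strand) holds 1 CHR and 1 E2F match, and Mcm5 (chr8:75109339-75109538, plus strand) holds 1 E2F match on the reverse strand.
Cdc20: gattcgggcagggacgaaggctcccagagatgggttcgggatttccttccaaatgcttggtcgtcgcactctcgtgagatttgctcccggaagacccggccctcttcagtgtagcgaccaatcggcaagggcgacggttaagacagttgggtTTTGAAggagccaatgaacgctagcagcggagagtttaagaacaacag
Asf1b: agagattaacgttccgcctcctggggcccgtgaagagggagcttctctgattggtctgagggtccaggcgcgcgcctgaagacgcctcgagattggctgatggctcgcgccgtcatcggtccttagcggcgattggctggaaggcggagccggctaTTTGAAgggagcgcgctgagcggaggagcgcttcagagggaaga
Ccnf: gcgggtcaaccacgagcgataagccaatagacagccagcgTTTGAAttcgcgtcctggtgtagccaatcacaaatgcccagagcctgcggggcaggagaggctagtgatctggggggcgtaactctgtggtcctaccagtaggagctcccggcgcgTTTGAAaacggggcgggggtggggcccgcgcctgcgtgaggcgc
Ncapd2: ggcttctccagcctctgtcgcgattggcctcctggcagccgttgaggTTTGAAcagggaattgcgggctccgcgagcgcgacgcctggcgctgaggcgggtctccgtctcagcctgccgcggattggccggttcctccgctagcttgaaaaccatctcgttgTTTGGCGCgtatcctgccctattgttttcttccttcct
Mcm5: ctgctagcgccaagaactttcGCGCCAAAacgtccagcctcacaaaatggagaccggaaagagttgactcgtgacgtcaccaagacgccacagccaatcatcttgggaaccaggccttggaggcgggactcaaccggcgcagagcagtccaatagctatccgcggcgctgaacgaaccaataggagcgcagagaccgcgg

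Across the whole replication list 30 of 30 genes had a positive tissue difference, with a median of 1.04, and across the mitosis list 29 of 30, with a median of 1.77. Over all tested genes 47.9% were positive and the median was -0.02. The members not called include Pcna, the sliding clamp of DNA polymerase (0.24, SE 0.22), Uhrf1, which maintains DNA methylation (2.25, SE 0.49, adjusted p = 0.14), Lig1, a DNA ligase (1.29, SE 0.29, adjusted p = 0.16), Kif11, a spindle kinesin (2.23, SE 0.47, adjusted p = 0.14) and Cenpf, a kinetochore protein (2.58, SE 0.56, adjusted p = 0.14). Of these, Uhrf1 (2.57, adjusted p = 0.0383) and Lig1 (1.67, adjusted p = 0.00803) were called without both fat libraries numbered 1, and all but Pcna were called by DESeq2. Cenpa, the centromeric histone, was the exception, at -0.33 (SE 0.18), with 47.7 to 69.8 CPM over all 12 libraries. An unadjusted p under 0.05 with a positive value was found for 18 replication genes and 28 mitosis genes, and for 3.27% of all genes. The lists were written with earlier results of these data known, so these counts describe them and do not test them.

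In fat alone 13 of the 30 replication genes and 25 of the 30 mitosis genes were called lower in LYVE1+ than in LYVE1- cells, where 2.1% of all genes were. The log2 fold change was negative for 30 replication genes (list median -0.98) and 29 mitosis genes (list median -1.68). In the aorta 0 of the 60 were called (2 at an unadjusted p under 0.05, 0 called by DESeq2), with medians of 0.06 and 0.14. Summed over the replication list, aorta LYVE1+ libraries held 944 to 1025 CPM, aorta LYVE1- 921 to 1011 CPM, fat LYVE1+ 622 to 746 CPM and fat LYVE1- 1071 to 1303 CPM. Summed over the mitosis list the ranges were 632 to 731, 609 to 749, 310 to 320 and 643 to 912 CPM in the same order. The fat LYVE1+ libraries thus lay below the other 9 on both sums, and the mitosis sums of the fat LYVE1- and the aortic libraries overlapped through fat LYVE1- library 1 (643 CPM). In bulk RNA, fewer cells expressing these genes and less of their RNA per cell cannot be told apart.

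**Figure D3:**
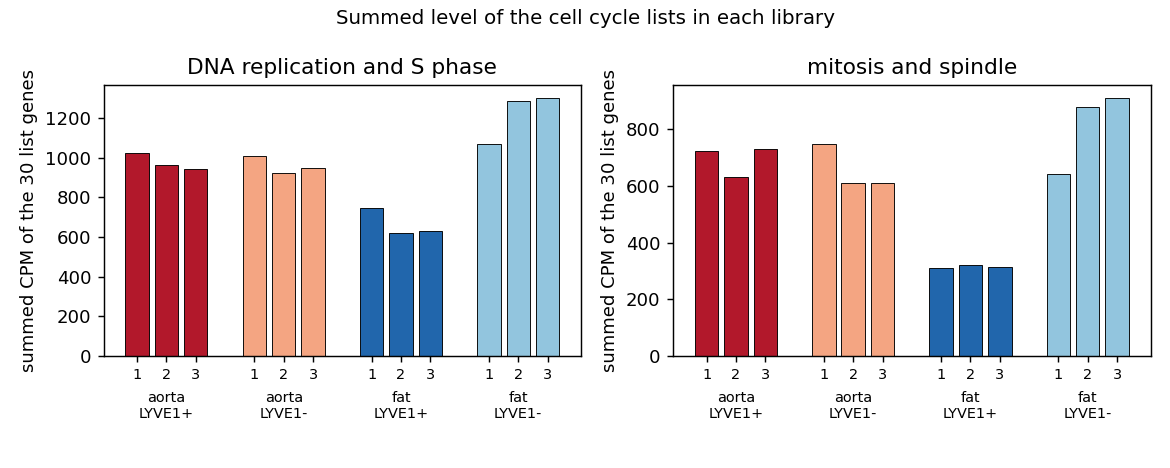
Summed CPM of the 30 DNA replication genes (left) and the 30 mitosis genes (right) in each library, with bars from 0 and library numbers under them. The 3 fat LYVE1+ bars are lowest in both panels, 622 to 746 CPM on the left and 310 to 320 CPM on the right.

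The same fit gave the tissue comparison within each sort, which uses the same libraries and is an arithmetic part of the tissue difference. Among LYVE1+ cells 20 of the 21 genes were called higher in aorta than in fat, with a median log2 fold change of 1.54, where 1.88% of all genes were called higher. The exception was Narf (0.21, adjusted p = 0.639). Among LYVE1- cells 2 of the 21 were called, Rrm2 (-0.96, adjusted p = 0.0317) and Narf (-1.19, adjusted p = 0.00376), both lower in aorta, where 0.823% of all genes were, and the median was -0.60. Of the 60 genes of both lists 27 were called higher in aorta among LYVE1+ cells and 1 lower among LYVE1- cells, with medians of 1.02 and -0.37. The aorta and the fat libraries of LYVE1- cells carry different library name prefixes, so tissue and prefix cannot be told apart among them.

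The size of these differences held more firmly than the calls. All 22 genes kept their sign and an unadjusted p under 0.05 in each of the 22 alternative fits, for Tk1 between 2.01 and 2.32 and for Hmmr between 2.90 and 3.43, and without both fat libraries numbered 1 all 22 were called among 84 genes. These genes were chosen for small p-values in the same libraries that the alternative fits reuse, so their holding is no independent support. No gene was called without aorta LYVE1+ library 1 or 3, aorta LYVE1- library 1 or 3, fat LYVE1+ library 2, or fat LYVE1- library 2 or 3 (smallest adjusted p 0.0595 to 0.0997), 1 gene was called without aorta LYVE1- library 2, and 5 without fat LYVE1+ library 3. With DESeq2 100 genes were called, the 22 among them. LYVE1+ and LYVE1- libraries of the same number deviated together in fat and not in the aorta, though fat libraries 2 and 3 also did so across numbers. With the number as a block in fat only, chosen after that was seen, 42 genes were called (28 positive and 14 negative), the 22 among them. With a block in both tissues 23 were called, 14 of the 22 among them and Mcm3, Nusap1, Aurka, Ccnf, Spc24, Pkmyt1, Narf and Siglech not. The library names carry 2 prefixes of unstated meaning, and only in the aorta do both occur, the first on LYVE1+ libraries 1 and 2 and the other on LYVE1+ library 3 and the 3 LYVE1- libraries. All fat libraries carry the first. With the prefix as a term no gene was called (smallest adjusted p 0.151, with all 22 at an unadjusted p under 0.05), and the aortic difference then rests on LYVE1+ library 3.

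Markers of other cell types were followed through the same libraries. The summed level of 8 eosinophil markers was 140 to 369 CPM in fat LYVE1-, 8.73 to 101 CPM in fat LYVE1+, 47.1 to 148 CPM in aorta LYVE1- and 5.05 to 5.47 CPM in aorta LYVE1+ libraries. The sum in fat LYVE1- libraries came from members other than Prg2 (0 to 0.10 CPM there) and Il5ra (0 to 1.39 CPM there). Prg2 stood at 5.83 to 14.6 CPM in aorta LYVE1- libraries. The eosinophil sum is thus not a level shared by its members. For 8 large peritoneal macrophage markers the ranges were 881 to 2457, 128 to 759, 222 to 1290 and 25.7 to 133 CPM in the same order of groups. Most of this peritoneal sum came from 1 member, Fn1, so it does not show a level shared by the 8 markers. Fn1 stood at 2372.5, 866 and 851 CPM in fat LYVE1- libraries and at 656, 117 and 107 CPM in fat LYVE1+ libraries. Both sums were thus higher in LYVE1- than in LYVE1+ cells in fat, as the cell cycle sums were, and higher in LYVE1- cells in the aorta as well, where the cell cycle sums overlapped. Of the eosinophil markers 6 and of the peritoneal markers 7 were tested, and none was called for the tissue difference (1 eosinophil marker and no peritoneal marker at an unadjusted p under 0.05, and 1 eosinophil marker called by DESeq2). Their part in the cell cycle result was not tested.

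Siglech (chr7:55768178-55778925), a sialic acid receptor known from plasmacytoid dendritic cells and microglia, was the only gene called with a negative tissue difference. It stood at 145, 151 and 147 CPM in aorta LYVE1+ and at 125, 124 and 180 CPM in aorta LYVE1- libraries, against 66.0, 69.7 and 62.3 CPM in fat LYVE1+ and 13.7, 24.04 and 23.2 CPM in fat LYVE1- libraries. The aortic sorts overlapped, every aortic library exceeded every fat library, and in fat the LYVE1+ libraries lay above the LYVE1- libraries. The log2 fold change was 0.04 in aorta and 1.69 in fat, a tissue difference of -1.65 (SE 0.28, adjusted p = 0.0466). It was -1.44 (adjusted p = 0.0172) without both fat libraries numbered 1 and -1.68 (adjusted p = 0.0181) with the number as a block in fat, and with a block in both tissues it missed the threshold at -1.66 (adjusted p = 0.0516). It was higher in aorta than in fat among LYVE1+ cells (1.16, adjusted p = 0.00831) and among LYVE1- cells (2.81, adjusted p = 3.55e-05), where 1.88% and 1.66% of all genes were called higher. Among LYVE1- cells the library name prefix is split in the same way, so tissue and prefix cannot be told apart. The 13 dendritic cell markers, Siglech included, summed to 859 to 1010 CPM in aorta LYVE1+, 1028 to 1270 CPM in aorta LYVE1-, 884 to 1086 CPM in fat LYVE1+ and 950 to 1183 CPM in fat LYVE1- libraries, and their part in the Siglech result was not tested.

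Other genes of the negative direction were not called in the fit of all 12 libraries, and several were called in alternative fits. Tcim had -1.80 (SE 0.40, adjusted p = 0.145) and was called by DESeq2 (adjusted p = 0.00509), without both fat libraries numbered 1 (-1.80, adjusted p = 0.0105) and with the fat block (-1.80, adjusted p = 0.0122). Agfg1 (-1.12, SE 0.22), Bmp2 (-1.44, SE 0.30), Csf3r (-0.92, SE 0.19) and Ptp4a3 (-1.04, SE 0.23) were each called by DESeq2. Without both fat libraries numbered 1 Agfg1 (adjusted p = 0.0451) and Csf3r (adjusted p = 0.0329) were called. Bmp2 (adjusted p = 0.111) and Ptp4a3 (adjusted p = 0.153) were not called in that fit. Cd209b (chr8:3917655-3926844), a C-type lectin of the mouse SIGN family, stood at 207, 261 and 156 CPM in aorta LYVE1+, 139, 179 and 272 CPM in aorta LYVE1-, 521, 561 and 591 CPM in fat LYVE1+ and 72.9, 151 and 155 CPM in fat LYVE1- libraries. The fat LYVE1+ libraries lay above the other 9, and the tissue difference was -2.06 (SE 0.42, adjusted p = 0.134). It was called by DESeq2 (-2.07, adjusted p = 0.00023), without both fat libraries numbered 1 (-1.83, adjusted p = 0.0392) and with the fat block (-2.13, adjusted p = 0.0313). Cd209b was not called with a block in both tissues or without fat LYVE1+ library 1 alone (adjusted p = 0.0754). Its paralogs had values of -1.58 (Cd209d, SE 0.41), -1.25 (Cd209g, SE 0.44), -1.13 (Cd209f, SE 0.52) and -1.13 (Cd209a, SE 0.24). Cd209a was called by DESeq2 (adjusted p = 0.00176), without fat LYVE1+ library 1 (-1.29, adjusted p = 0.0246) and without both fat libraries numbered 1 (-1.39, adjusted p = 0.00643), and Cd209d by DESeq2 (adjusted p = 0.0146). How reads that match several of these close paralogs were counted was not given in the sources used here, so their values are uncertain.

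Adgrg1 (chr8:94974751-95014217), an adhesion G protein-coupled receptor, stood at 73.4, 36.5 and 55.4 CPM in aorta LYVE1+, 9.50, 15.6 and 9.05 CPM in aorta LYVE1-, 59.9, 146 and 162 CPM in fat LYVE1+ and 3.33, 5.69 and 3.28 CPM in fat LYVE1- libraries. It was called higher in LYVE1+ cells of both tissues (log2 fold changes 2.26 and 4.89), and the tissue difference of -2.63 (SE 0.55) missed the threshold at an adjusted p of 0.134. It was called without fat LYVE1+ library 1 (-2.95, adjusted p = 0.0176), without both fat libraries numbered 1 (-2.83, adjusted p = 0.0149), with the fat block (-2.59, adjusted p = 0.0313) and by DESeq2 (-2.64, adjusted p = 0.000524). With a block in both tissues it was not called. Npr1, a receptor of natriuretic peptides, had log2 fold changes of 1.87 in aorta and 4.17 in fat and a tissue difference of -2.30 (SE 0.48, adjusted p = 0.134). It was called by DESeq2 (adjusted p = 0.00133), without fat LYVE1- library 1 (-2.82, adjusted p = 0.0247) and without both fat libraries numbered 1 (-2.96, adjusted p = 0.00878). With the number as a block, in fat only or in both tissues, Npr1 was not called. Vsig4, a complement receptor of resident macrophages, had values of 2.87 and 4.49 and a difference of -1.62 (SE 0.63, adjusted p = 0.734).

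Among genes lower in LYVE1+ cells, Vcam1 (chr3:116109949-116129688), an adhesion molecule that binds leukocyte integrins, stood at 65.0, 67.6 and 70.9 CPM in aorta LYVE1+, 231, 235 and 178 CPM in aorta LYVE1-, 62.8, 37.6 and 33.0 CPM in fat LYVE1+ and 313, 436 and 399 CPM in fat LYVE1- libraries. It was called in both tissues (-1.66 and -3.12), with a tissue difference of 1.46 (SE 0.31, adjusted p = 0.136). It was called by DESeq2 (adjusted p = 0.00204), without fat LYVE1+ library 1 (1.78, adjusted p = 0.0152) and without both fat libraries numbered 1 (1.91, adjusted p = 0.00374). With the number as a block, in fat only or in both tissues, it was not called. Cx3cr1, the fractalkine receptor, had -1.39 in aorta (not called) and -4.04 in fat (called) and a difference of 2.65 (SE 0.70, adjusted p = 0.303). Its aortic LYVE1+ libraries were spread, at 47.7, 132 and 38.4 CPM, against 9.02, 3.81 and 2.32 CPM in fat LYVE1+ libraries, and its annotated span overlaps other genes on both strands.

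Aqp1 (chr6:55336432-55348555), a water channel, was called in the aorta and not in fat. It stood at 226, 285 and 228 CPM in aorta LYVE1+, 20.3, 33.2 and 43.9 CPM in aorta LYVE1-, 20.0, 4.42 and 5.44 CPM in fat LYVE1+ and 11.9, 5.30 and 7.57 CPM in fat LYVE1- libraries. The aortic sorts were separate and the fat sorts overlapped, with log2 fold changes of 2.92 (adjusted p = 0.0137) and 0.18 (adjusted p = 0.906). The tissue difference was 2.74 (SE 0.67, adjusted p = 0.238), so a dependence on tissue was not called. It was called without fat LYVE1+ library 1 (3.65, adjusted p = 0.0152), without both fat libraries numbered 1 (3.31, adjusted p = 0.00643) and with the fat block (2.88, adjusted p = 0.011). DESeq2 did not call it.

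**Figure D4:**
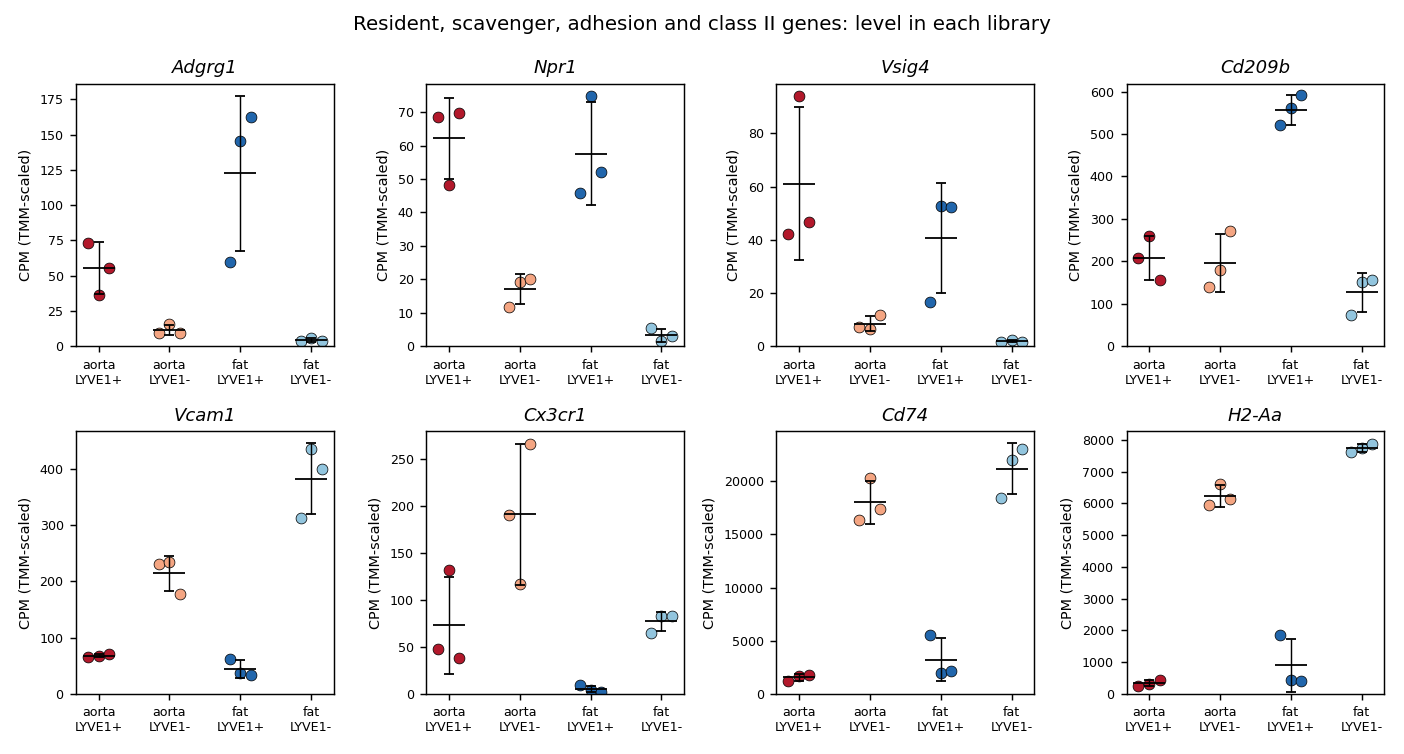
Level in CPM, scaled by TMM factors, in each of the 12 libraries for 8 genes that were not called for the tissue difference, with a horizontal line for the mean and bars for the SD of 3 libraries. In the panels of Cd74 and H2-Aa fat LYVE1+ library 1 stands apart from libraries 2 and 3, with 1864 against 425 and 389 CPM for H2-Aa.

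Of 10 MHC class II genes, which load and present peptides to CD4 T cells, 7 were called lower in LYVE1+ cells in each tissue. Of all genes 0.429% were called lower in aorta and 2.1% in fat. The log2 fold change was negative for 10 members in aorta and 8 in fat. All 10 had negative tissue differences, median -1.11, none called (none at an unadjusted p under 0.05, none called by DESeq2). H2-Aa stood at 259, 324 and 437 CPM in aorta LYVE1+ and at 1864, 425 and 389 CPM in fat LYVE1+ libraries, so the value rests on fat LYVE1+ library 1. Without that library the median of the list was 0.25 with 7 of 10 positive, and H2-Aa moved from -1.08 to 0.05. Without both fat libraries numbered 1 the median of the list was 0.12 with 6 of 10 positive. The 14 monocyte and CCR2+ macrophage genes had a median of -1.16, which was 0.69 without that library and -0.17 without both.

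Genes of resident LYVE1+ macrophages had mostly negative values. Of 22 tested 20 were negative with a median of -0.49, none called (5 at an unadjusted p under 0.05 with a negative value, as 2.79% of all genes had, and none called by DESeq2), and the median was -0.67 without fat LYVE1+ library 1, -0.37 without both fat libraries numbered 1 and -0.22 with 7 positive without fat LYVE1- library 1. The 5 were C4b, a complement component (-1.73, SE 0.60), Vsig4, Timd4, a receptor for phosphatidylserine (-1.37, SE 0.51), Cd209g and Cd209f. Of these, C4b and Timd4 were called without both fat libraries numbered 1 (-1.59, adjusted p = 0.00643, and -1.28, adjusted p = 0.0161) and with the fat block (-1.90 and -1.45, both at an adjusted p of 0.00992). Without fat LYVE1+ library 1 alone C4b (adjusted p = 0.254) and Timd4 (adjusted p = 0.243) were not called. Fcna, a ficolin of the lectin pathway, had -0.98 (SE 0.56), Folr2, a folate receptor, -0.52 (SE 0.46), Cd163, the haemoglobin scavenger receptor, -0.19 (SE 0.35) and Mrc1, the mannose receptor, -0.11 (SE 0.37). In fat 12 of the 22 were called higher in LYVE1+ cells (1.82% of all genes) and in the aorta 1, Vsig4 (0.113% of all genes). Without both fat libraries numbered 1 the counts were 17 in fat and 15 in the aorta, where 406 and 236 of all tested genes were called higher. A contrast of these counts is not a test of the difference.

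Among 18 complement genes 14 were negative with a median of -0.18, among them C6 of the membrane attack complex (-2.63, SE 0.94) and C2 of the classical pathway (-1.83, SE 0.60), and none was called (4 at an unadjusted p under 0.05, none called by DESeq2). Without both fat libraries numbered 1 the median was -0.34, and C6 (-2.62, adjusted p = 0.00643) and C4b were called. With the fat block both genes were called as well (C6 at -2.71, adjusted p = 0.00992). Among 20 scavenger receptors the median was -0.22 (-0.11 without both fat libraries numbered 1), none called (8 at an unadjusted p under 0.05, 4 called by DESeq2, and 3, Cd209a, Cd209b and Colec12, without both fat libraries numbered 1), with Lrp1, a lipoprotein and ligand clearance receptor, on the positive side (0.76, SE 0.20). Of the 21 lists that are not markers of other cells, 18 held no called gene. Their medians lay between -1.16 and 0.19, with glycolysis at 0.04, lipid handling at -0.15, type I interferon response at -0.23, chemokines at 0.19 and inflammatory mediators at 0.12. Leaving out single libraries moved these medians. Chemokines ranged from -0.36 (without aorta LYVE1+ library 3) to 0.41 (without aorta LYVE1- library 1) and inflammatory mediators from -0.28 to 0.61 on leaving out the same libraries. Glycolysis ranged from 0.0087 (without fat LYVE1- library 1) to 0.15 (without fat LYVE1+ library 1), lipid handling from -0.26 (without aorta LYVE1+ library 2) to -0.068 (without fat LYVE1+ library 3), and type I interferon response from -0.41 (without fat LYVE1+ library 1) to -0.10 (without fat LYVE1- library 1).

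**Figure D5:**
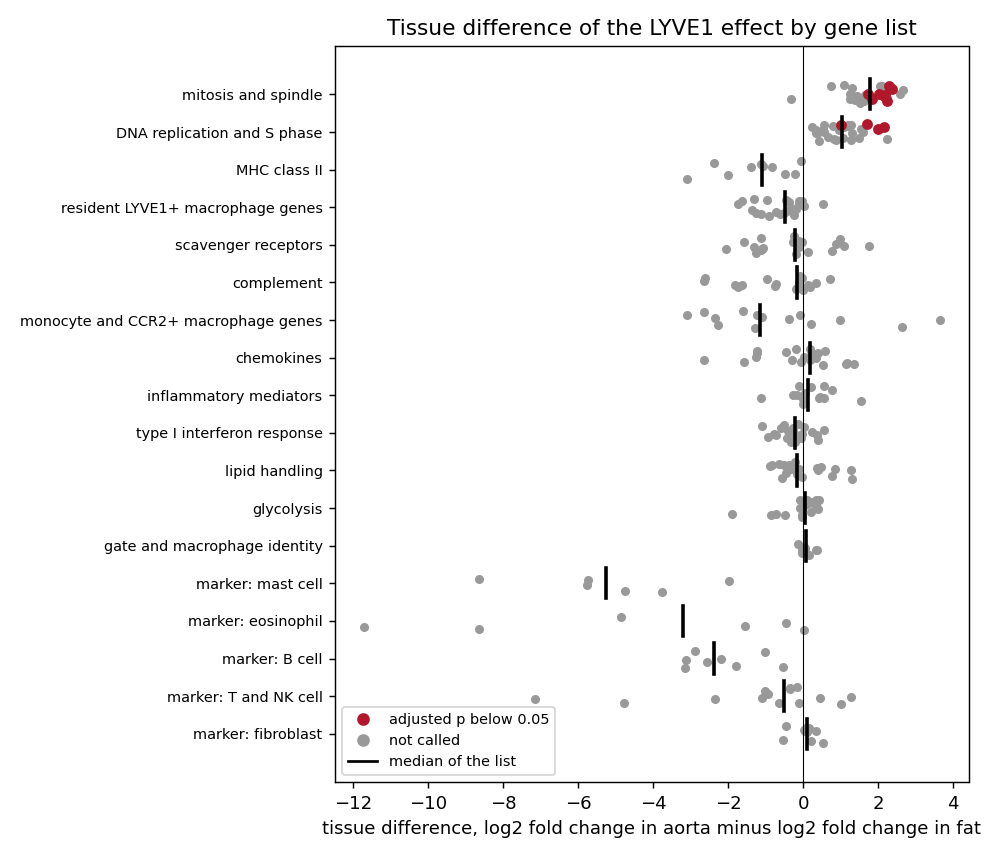
Tissue difference of each tested gene by list, with called genes in red, the others in grey and the list median as a black bar. The mitosis and replication lists lie to the right of 0 with medians of 1.77 and 1.04, and the mast cell list lies farthest to the left with a median of -5.25 (-3.5 without both fat libraries numbered 1).

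Markers of rare cells gave the widest values without a call. The 6 tested mast cell markers were all negative with a median of -5.25 (5 at an unadjusted p under 0.05, 1 called by DESeq2). Without both fat libraries numbered 1 the median of these markers was -3.5. Cma1, a mast cell chymase, stood at 0.35, 2.18 and 0.57 CPM in aorta LYVE1+ and at 15.4, 10.1 and 14.9 CPM in aorta LYVE1- libraries, and at 12.1, 4.59 and 0 CPM in fat LYVE1+ and 0.13, 1.67 and 2.09 CPM in fat LYVE1- libraries. The sum of the mast cell markers ranged over 50.9 to 79.4 CPM for the LYVE1- sort of the aorta and over 2.7 to 54.3 CPM for the other 9 libraries. The T and NK cell markers had a median of -0.50 and a summed level of 349 CPM in fat LYVE1+ library 1 where libraries 3 and 2 of that group held 28.1 and 33.6 CPM. That median was 2.54 with 11 of 14 positive without fat LYVE1+ library 1, -3.29 with 0 of 14 positive without fat LYVE1- library 1, and 0.19 without both.

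The LYVE1 differences of the 2 tissues were also set side by side gene by gene. Across tested genes, which are not independent replicates, the aortic and the fat log2 fold changes, measured in separate libraries, had a Pearson r of 0.31 and a Spearman rho of 0.35. Of the genes called in either tissue 54 were called in both, all with the same sign, 23 in the aorta only and 504 in fat only, and 0 of the 54 were called for the tissue difference (9 at an unadjusted p under 0.05, 3 called by DESeq2 and 3 without both fat libraries numbered 1). The median SE of the tissue difference was 0.41, against 0.29 for either within-tissue value. A call in fat without a call in aorta is therefore no test of a dependence on tissue.

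Of the genes called in both tissues, 6 were named for the smallest tissue differences. Mamdc2, which encodes a protein with MAM domains, stood at 83.3, 73.9 and 70.8 CPM in aorta LYVE1+, 32.2, 29.0 and 32.5 CPM in aorta LYVE1-, 104, 115 and 97.0 CPM in fat LYVE1+ and 27.2, 50.3 and 52.0 CPM in fat LYVE1- libraries. Its log2 fold change was 1.28 in both, with a tissue difference of 0.00099 (SE 0.27). Icosl, the ligand of the T cell costimulator ICOS, fell in LYVE1+ cells by 1.23 in aorta and by 1.20 in fat on the log2 scale, with a difference of -0.03 (SE 0.20). Ptprs, a receptor phosphatase (0.04, SE 0.23), Rin3, a Rab GTPase exchange factor (0.03, SE 0.46), and Ehf, an ETS transcription factor (-0.05, SE 0.65), completed the genes with values near 0, and these SEs do not show that the tissues act alike. Il12b, a subunit of IL-12, stood at 0 to 0.07 CPM in LYVE1+ libraries of both tissues and at 4.21 to 10.8 CPM in aorta and 1.37 to 3.58 CPM in fat LYVE1- libraries, so its tissue difference has no firm value.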

How the data were processed

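Full-length cDNA (Smart-seq2, 2 ng of RNA, 51 cycles from each end) was sequenced from 12 sorted samples, per the labels' protocols. The deposited table holds raw counts per gene, made by the authors. STAR 2.5.2b, featureCounts 1.5.0, edgeR 3.14.0 and GRCm38 were used, per the submitters' processing notes. No source used here gives the annotation release, the strand setting or the treatment of multiply mapped reads. Columns were assigned by sample title. Symbols and coordinates came from GENCODE M21 by Ensembl identifier (46005 of 46517 genes).

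All 12 libraries entered 1 edgeR 4.0.16 quasi-likelihood fit (R 4.3.3) with a mean per group, TMM factors (0.96 to 1.04) and edgeR's filter on low counts, leaving 8 residual degrees of freedom. Tests were two-sided, with Benjamini-Hochberg adjustment over all 14216 tested genes and calls below 0.05. SE is the size of a log2 fold change divided by the square root of F. CPM per gene uses TMM-scaled totals, and sums over lists use plain totals of 5049936 to 29792301 counts. On simulated counts (13871 genes) the interaction test called 84% of 100 genes with a true log2 difference of 2, 99% of 100 with 4 and 0.0951% of unchanged genes. The simulated differences lay in aorta LYVE1+ libraries alone, in genes above a minimum level, with equal means otherwise and no library set apart. These shares therefore do not carry over to the deposited libraries.

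The contrast, members and gene lists were chosen with earlier results of these data known. Named genes were every called gene, the negative direction filled to 10 by smallest p at an average log2 CPM of at least 3, per list up to 4 called members and the 2 of smallest p, a set of fixed genes, and genes called in both tissues with the 6 largest and 6 smallest differences. List members outside this rule (Plk1, Pcna, Uhrf1, Lig1, Kif11, Cenpf, Cenpa, Lrp1, C6, Cd209d and Cd209f among them) were picked after their values were seen, to show the spread of their lists. Alternatives were DESeq2 1.42.0, limma 3.58.1 (voom), robust shrinkage, RLE factors, other filters, the replicate number as a block (in both tissues, or, added after the data were seen, in fat only), the library name prefix, and leaving out libraries. Same-numbered libraries deviated together in fat (correlations 0.486, 0.279 and 0.184) and not in aorta (-0.044, -0.077 and -0.17). The main fit held no block. Only the alternative with a block in fat took the numbers to pair the fat libraries, on this correlation. The labels number the LYVE1+ and LYVE1- libraries of a tissue alike and do not say that equal numbers share animals. In fat, LYVE1+ library 3 with LYVE1- library 2 (0.225) and LYVE1+ library 2 with LYVE1- library 3 (0.192) also deviated together. A pairing by number is thus not shown beyond the libraries numbered 1.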

Additional observations from a re-analysis of the deposited data

Results flagged for a closer look

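The interaction test found that the LYVE1+ over LYVE1- log2 fold change differed between aorta and fat for 22 genes, all described above, and these are the results that warrant a closer look. Among DNA replication genes the differences were 2.16 for Tk1, 1.99 for Rrm2, 1.70 for Mcm5 and 1.02 for Mcm3. Among mitosis genes they were 2.30 for Cdc20, 2.02 for Prc1, 2.15 for Birc5, 1.72 for Top2a, 1.82 for Mki67, 2.38 for Nusap1, 2.17 for Tpx2 and 2.24 for Aurka. Outside both lists they were 2.00 for Stmn1, 1.92 for Ncapd2, 3.20 for Hmmr, 1.87 for Asf1b, 2.29 for Spc24, 1.70 for Racgap1, 2.35 for Ccnf, 1.94 for Pkmyt1 and 1.40 for Narf, and -1.65 for Siglech.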

How the results depend on the processing

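The count of 22 genes with a tissue-dependent LYVE1 difference was 100 with DESeq2 (75 positive, 25 negative), 72 with no filter on low counts, 84 without both fat libraries numbered 1, 0 with the library prefix as a term, and 0 to 47 when leaving out each library. With limma voom it was 15, with robust shrinkage 23 and with RLE factors 21. Of the 22 genes, all were among the calls of DESeq2 and of the fit without both fat libraries numbered 1, 21 with no filter, and 14 with voom. The 4 called replication genes became 7, 9, 0 and 0 to 6 with DESeq2, without both fat libraries, with the prefix, and leaving out each library. The 8 called mitosis genes became 17, 14, 0 and 0 to 11 in the same order, 5 with voom and 13 with no filter. For aorta the count of 77 was 360 with DESeq2, 139 with voom, 336 with no filter, 2 with the prefix, 566 without both fat libraries and 23 to 210 leaving out each library. For fat the count of 558 was 1013 with DESeq2, 887 without both fat libraries and 219 to 1025 leaving out each library. The causes were not tested.

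With the replicate number as a block 23 genes were called in the interaction (18 positive, 5 negative, 14 of the 22 among them), 243 in aorta and 915 in fat. Equal numbers deviated together in fat only, where libraries 2 and 3 also did so across numbers. With the replicate block in fat only, added after the data were seen, 42, 414 and 1133 genes were called in the same order. Over 107 named genes and 22 alternatives, 2034 values kept their sign and side of the threshold (40 of these were uncalled values that crossed 0 by less than 1 SE), 240 lost a call, 56 gained 1 and 18 changed sign. The sign changes were in uncalled values: H2-Aa (0.067) and H2-Ab1 (0.22) without both fat libraries numbered 1, Il12b (1.38), whose LYVE1+ libraries are at or near 0, with the prefix, and the rest on leaving out a library. Over those 12 fits H2-Aa ranged from -1.42 to 0.054, H2-Ab1 from -1.50 to 0.16, Pecam1 from -2.515 to 0.43, Fn1 from -1.89 to 0.15 and Hba-a2 from -4.22 to 3.54, each positive without fat LYVE1+ library 1. Pi16 ranged from -0.59 (without aorta LYVE1+ library 2) to 0.98, Slc4a1 from -0.044 (without aorta LYVE1+ library 3) to 11.3, and Il12b from -1.75 to 0.51. Fat LYVE1+ library 1 also holds the fewest counts, 5049936. The average log2 CPM was 11.9 for H2-Aa, 12.6 for H2-Ab1 and 9.19 for Fn1. A part of depth in these sign changes was not tested.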

Other observations

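The level of Siglech was set beside genes of 2 cell types known for it, chosen after the values of Siglech were seen and given with no test. Of plasmacytoid dendritic cell genes, Klk1 had no counts in any library, Pacsin1 stood at 0 to 2.11 CPM, Ccr9 at 0.10 to 8.64 CPM and Ly6d at 0.81 to 40.5 CPM, with the highest value of each in fat LYVE1+ library 1, while Siglech there stood at 66.0 CPM and reached 180 CPM in the aorta. Of microglial genes, Sall1 had no counts in any library, Tmem119 stood at 0.78 to 20.5 CPM and P2ry12, a purinergic receptor, at 28.8 to 205 CPM. The tissue difference of P2ry12 was -0.39 (adjusted p = 0.993).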
